A study of Mus musculus with 56 samples.

Results

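The liver transcriptome of 8 female APOE*3Leiden.CETP mice given ponatinib at 3 mg/kg was compared with that of 8 vehicle-treated control mice. These mice were chosen by their treatment label alone, and their 16 libraries are part of a series of 56 with 8 mice in each of 7 groups. All were 9 to 14 weeks of age at entry and ate a Western-type diet with 15% cacao butter and 0.15% cholesterol. They carry the human APOE*3Leiden, APOC1 and CETP transgenes, which shift lipoprotein metabolism towards that of humans. These human genes have no entry of their own in a mouse annotation, and whether any of their reads were counted on mouse genes was not tested. Ponatinib was gavaged once a day in 5% carboxymethyl cellulose, with a second daily gavage of vehicle, over 16 weeks. Control mice received vehicle alone. Groups given ponatinib or nilotinib at 10 mg/kg once daily, also of 8 mice on the same diet, serve as further comparisons. Groups given nilotinib at 30 mg/kg, or imatinib at 150 mg/kg in both daily gavages, entered the main statistical fit only. Each library is 1 mouse, no label gives a litter, cage or sequencing date, and replicate numbers follow the order of deposit and only name a mouse.

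Ponatinib inhibits the BCR-ABL1 tyrosine kinase and also the receptors for vascular endothelial, platelet-derived and fibroblast growth factors. Hepatocytes make most of the clotting factors and apolipoproteins of the blood and fold the proteins they secrete with chaperones of the endoplasmic reticulum (ER). Stellate cells are the main source of liver collagen, sinusoidal endothelial cells line its capillaries, and Kupffer cells and recruited monocytes are its macrophages. In whole liver, fewer cells of a type and less RNA per cell cannot be told apart.

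Between 7696730 and 17996732 reads were counted on genes in control mice and between 6980407 and 15789978 in ponatinib-treated mice. Hepatocyte markers summed to 81120 to 141700 CPM in control mice (median 112900) and 123500 to 149600 CPM with ponatinib (median 136000), where CPM is the read number of a gene scaled to a common library total, whereas skeletal muscle markers summed to at most 2.35 CPM. The share of uniquely aligned reads outside annotated genes was 7.97% ± 0.422 (SD, n = 8 mice) in control and 8.53% ± 0.612 in treated mice (exact permutation test, p = 0.0466). Genes with at least 1 read numbered 15870 ± 933 in control and 14770 ± 852 in treated mice (exact permutation test, p = 0.0294). That number was not adjusted for depth, and reads on genes averaged 10110000 in control and 8615000 in treated mice (exact permutation test, p = 0.3518). The 10 genes with the most reads in a library held 19.5% ± 1.24 of its reads on genes in control and 20.7% ± 0.55 in treated mice (exact permutation test, p = 0.0196). With the share outside genes as a covariate 352 genes were called in place of the 413 described next. The parts of the number of genes detected and of the share of the top 10 genes in the results were not tested. Means below are given ± SD over 8 mice and fold changes ± SE.

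The first question was which liver genes differed at this dose. Of 14090 genes tested, 413 (2.93%) had a p-value below 0.01 before adjustment, the study's own cut-off, in the quasi-likelihood test of edgeR and are named called genes here. Of these, 186 (1.32%) were higher and 227 (1.61%) lower with ponatinib, where 141 genes would pass if none differed. After Benjamini-Hochberg adjustment 6 genes (0.0426%) had a p-value below 0.05, all of them lower with ponatinib. They were Cdkn1a, Col1a2, Gpnmb, Col5a2, Col1a1 and Hyou1. At the cut-off for called genes the adjusted p-value reached 0.34, and adjusted p-values beside single genes below are those of edgeR over all 14090 genes. This fit estimated the spread from 48 mice of 6 groups. In a fit of the 16 mice alone 0 genes passed adjustment (edgeR, smallest adjusted p = 0.0689).

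Changes were larger among the genes that were lower. The median log2 fold change was -0.73 in genes called lower and 0.47 in genes called higher, and 80 genes called lower and 20 called higher differed by more than 1 on the log2 scale. In 15 genes (0.106% of those tested) the 8 treated and 8 control mice did not overlap, 9 of them lower and 6 higher with ponatinib. The number of called genes depended on single mice, being 228 without control mouse 1, 276 without control mouse 6 and 618 without control mouse 3. Leaving out any one of control mice 1, 2 and 6 or ponatinib mice 2, 3, 4, 6, 7 and 8 left edgeR with 0 genes at an adjusted p-value below 0.05, with 228 to 383 called genes. All 6 genes above were called in each of the 16 fits that left out 1 mouse.

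**Figure D1:**
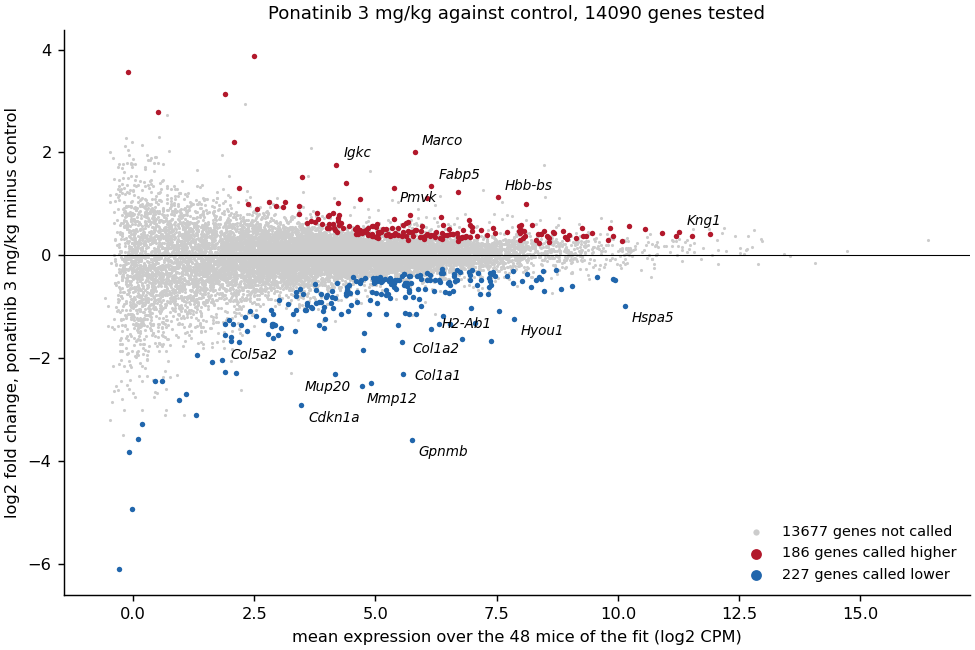
Log2 fold change of each of the 14090 genes tested, ponatinib 3 mg/kg minus control, against its mean expression in log2 CPM over the 48 mice of the fit. Grey points are genes not called, red points the 186 called higher and blue points the 227 called lower, which reach further from 0 than the red ones.

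Genes of collagens and extracellular matrix formed the largest group of called genes. Of 42 tested, 16 were called, all lower with ponatinib, where 1.61% of all genes tested were called lower, and 40 had a negative log2 fold change. The median of the list was -0.78, against -0.008 over all genes tested. Some of these collagens were named by the study from other treated groups set against the same control mice, so their direction is not independent evidence. This and the other gene lists were chosen with earlier results of these data known. Their shares of called genes, here and below, are therefore not independent evidence either.

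Col1a1 and Col1a2 encode both chains of type I collagen, the main fibrillar collagen of scar tissue. Col1a1 (chr11:94936224-94953042, GRCm38) ranged from 23.6 to 219 CPM in control mice (median 90.7) and from 8.17 to 77.6 CPM with ponatinib (median 12.7). In all but ponatinib mouse 5 the treated mice (7 of 8) lay below every control mouse. The log2 fold change was -2.31 ± 0.47 (SE), or 4.97-fold lower (edgeR, adjusted p = 0.029; exact permutation p = 0.0028). Col1a2 (chr6:4504814-4541544) ranged from 24.2 to 166 CPM in control mice (median 90.8) and from 10.6 to 54.5 CPM with ponatinib (median 27.2). The groups overlapped, with 3 treated mice below the lowest control mouse, and the log2 fold change was -1.68 ± 0.33 (edgeR, adjusted p = 0.025; exact permutation p = 0.0042).

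Col5a2 (chr1:45374321-45503282), a chain of type V collagen, which helps to start fibrils, ranged from 2.28 to 29.8 CPM in control mice (median 12.7) and from 2.35 to 5.53 CPM with ponatinib (median 3.44). Its log2 fold change was -1.87 ± 0.38 (edgeR, adjusted p = 0.029), yet control mouse 3 had the lowest value of all 16 mice. Col3a1, which encodes type III collagen, fell from 203 ± 120 to 65.6 ± 44.8 CPM (SD, n = 8; log2 fold change -1.63 ± 0.37 SE; edgeR, adjusted p = 0.086), and ponatinib mouse 5 again had the highest treated value. Col4a1, a chain of basement membrane collagen, fell from 76.8 ± 33.1 to 34.8 ± 11.0 CPM (log2 fold change -1.14, adjusted p = 0.074 by edgeR). The proteoglycan gene Lum, whose product lumican binds collagen fibrils, fell from 23.0 ± 12.8 to 9.81 ± 3.87 CPM (log2 fold change -1.24, adjusted p = 0.11 by edgeR). Outside the list, Hspg2, which encodes the basement membrane proteoglycan perlecan, fell from 44.0 ± 13.8 to 23.1 ± 8.31 CPM (log2 fold change -0.93, adjusted p = 0.087 by edgeR), with 6 treated mice below every control mouse.

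The spread between control mice was wide in this group. Relative to the control mean, the mean log2 CPM of the 42 genes was 0.55, 0.62, 0.22 and 0.70 in control mice 1, 2, 5 and 6, and -1.10, -0.62, -0.26 and -0.11 in control mice 3, 4, 7 and 8. Treated mice spanned -1.22 to -0.21, so that control mice 3, 4 and 7 lay within the treated range. The number of called members was 8 without control mouse 1 and 20 without control mouse 3.

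Of 17 markers of stellate cells 1 was called lower, against 1.61% of all genes, and the list median was -0.10. The called marker was the intermediate filament gene Nes, which fell from 9.06 ± 4.20 to 3.53 ± 2.80 CPM (log2 fold change -1.36, adjusted p = 0.32 by edgeR). Pdgfrb, the receptor of these cells for platelet-derived growth factor, was 26.2 ± 11.3 in control and 16.5 ± 5.61 CPM in treated mice (adjusted p = 0.35 by edgeR). Stellate cell markers summed to 509.9 to 687 CPM in control mice (median 599.6) and 411 to 659.8 CPM with ponatinib (median 582), and their part in the collagen difference was not tested.

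**Figure D2:**
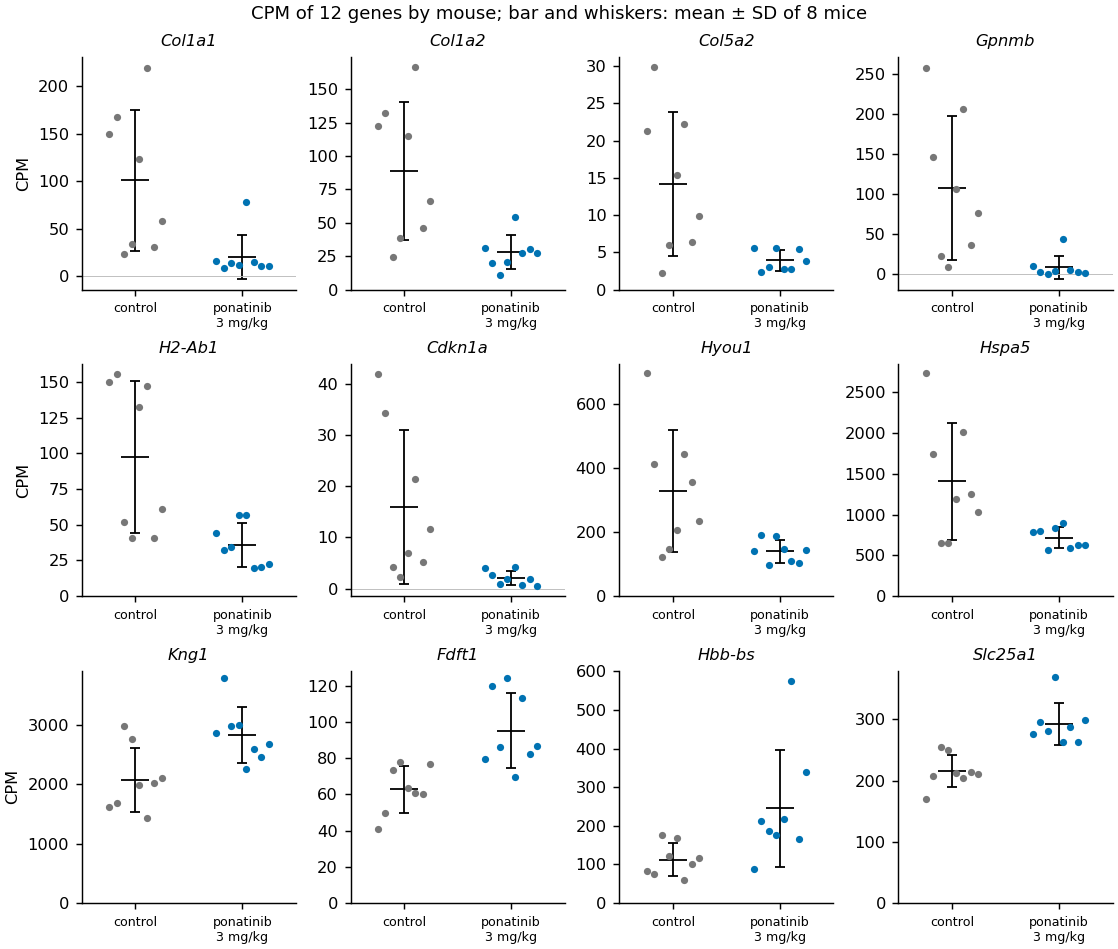
CPM of 12 genes in each of the 8 control mice (grey) and 8 mice given ponatinib 3 mg/kg (blue), with mean and SD as bar and whiskers. In the 8 genes of the upper rows the control mice are spread widely and the treated mice lie at the lower end, whereas Slc25a1 is higher in all 8 treated mice than in every control mouse.

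Gpnmb, a transmembrane glycoprotein of lipid-laden macrophages, had the largest log2 fold change of the 6 genes that passed adjustment. Gpnmb (chr6:49036546-49070929) ranged from 8.75 to 258 CPM in control mice (median 91.3) and from 0 to 44.3 CPM with ponatinib (median 3.35). It was 12.04-fold lower (log2 fold change -3.59 ± 0.71 SE; edgeR, adjusted p = 0.027; exact permutation p = 0.00124), and 6 of 8 treated mice lay below every control mouse. The highest treated value was that of ponatinib mouse 5 and the lowest control value that of control mouse 4.

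Of 29 markers of monocytes and lipid-laden macrophages 3 were called, all lower, against 1.61% of all genes, and the list median was -0.22. Beside Gpnmb these were Mmp12, the macrophage elastase, and Clec7a, a receptor for fungal glucans. Mmp12 fell from 40.2 ± 32.9 to 7.25 ± 12.7 CPM (log2 fold change -2.47 ± 0.71 SE, adjusted p = 0.19 by edgeR), and Clec7a fell from 37.5 ± 20.7 to 17.1 ± 6.26 CPM (log2 fold change -1.14, adjusted p = 0.25 by edgeR). The markers summed to 505 to 1595 CPM in control mice (median 1083) and 385 to 988 CPM with ponatinib (median 707), and the groups overlapped.

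Of 22 markers of resident Kupffer cells 2 were called, both higher with ponatinib, against 1.32% of all genes. Of the 22, 12 had a positive and 10 a negative log2 fold change, and the list median was 0.07. Clec4f, a lectin of Kupffer cells, rose from 182 ± 58.3 to 270.5 ± 56.6 CPM (log2 fold change 0.57 ± 0.19 SE, adjusted p = 0.29 by edgeR), and 6 of 8 treated mice lay above every control mouse. The scavenger receptor gene Marco ranged from 1.93 to 138 CPM in control mice (median 11.6) and from 7.48 to 291 CPM with ponatinib (median 81.5), with wide overlap (log2 fold change 2.01 ± 0.71, adjusted p = 0.31 by edgeR). Without control mouse 1 neither marker was called. The call of Clec4f held in 11 and that of Marco in 6 of the 16 fits that left out 1 mouse. The call of Marco was also lost in the fit of the 16 mice alone, and limma with sample weights called neither of them but 2 other members.

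MHC class II genes, with which macrophages, dendritic cells and B cells present antigen to helper T cells, were lower in several members. Of 12 tested 5 were called, all lower, against 1.61% of all genes, with a list median of -1.0. H2-Ab1 (chr17:34257689-34269419), the beta chain of I-A, ranged from 40.5 to 156 CPM in control mice (median 96.9) and from 19.6 to 57.1 CPM with ponatinib (median 33.4). In 5 treated mice it lay below every control mouse, and the log2 fold change was -1.44 ± 0.33 SE (edgeR, adjusted p = 0.086; exact permutation p = 0.00606).

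H2-Aa, the alpha chain of I-A, fell from 121 ± 64.1 to 48.3 ± 24.8 CPM, and H2-Eb1, the beta chain of I-E, from 104 ± 57.6 to 41.2 ± 17.1 CPM (adjusted p = 0.12 for both by edgeR). The invariant chain gene Cd74 fell from 242 ± 131 to 115 ± 49.4 CPM (log2 fold change -1.08, adjusted p = 0.19 by edgeR). Ciita, the transactivator of the whole family, fell from 7.56 ± 5.76 to 2.33 ± 1.07 CPM (log2 fold change -1.68, adjusted p = 0.22 by edgeR) and was not called without control mouse 5. As for the collagens, control mice 1, 2, 5 and 6 lay above the control mean of the list, by 0.43 to 0.69 on the log2 scale, and control mice 3, 4, 7 and 8 below it. MHC genes are similar in sequence, and a read that matched several places entered no count.

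Chaperones of the ER gave the next largest number of calls. When unfolded proteins accumulate, the sensor IRE1 (encoded by Ern1) splices the mRNA of the transcription factor XBP1, which together with ATF6 induces chaperones, disulfide isomerases and the machinery that removes misfolded proteins. Of 28 such genes tested 12 were called, all lower, against 1.61% of all genes. Of the 28, 27 had a negative log2 fold change and the list median was -0.44. The number called was 6 without control mouse 1 and 16 without control mouse 3.

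Promoters of 4 called members are shown because they share a known element of this response. The ER stress response element consists of CCAAT and CCACG with 9 bases of any kind between them and is known to bind NF-Y and ATF6. It was searched on both strands of RefSeq promoters (GRCm38.p6) from 250 bases before to 50 bases after each transcription start. It was found in 37 of 27025 genes with a promoter sequence (0.137%) and in 8 of the 22 genes of the list that have one. Among these, 6 of the 10 called members held it (Hspa5, Hsp90b1, Creld2, Dnajc3, Pdia6 and Syvn1), as did Calr and Canx, which were not called. The list was made of known genes of this response, so its share of the element reflects that choice and is no result of these livers. A match describes letters and not binding in these livers. The promoters are written 5′ to 3′ along the strand of the gene with the element in capitals, and span chr2:34771840-34772139 (plus strand) for Hspa5, chr19:6046326-6046625 (plus strand) for Syvn1, chr15:88819396-88819695 (plus strand) for Creld2 and chr10:86705395-86705694 (minus strand) for Hsp90b1.
Hspa5: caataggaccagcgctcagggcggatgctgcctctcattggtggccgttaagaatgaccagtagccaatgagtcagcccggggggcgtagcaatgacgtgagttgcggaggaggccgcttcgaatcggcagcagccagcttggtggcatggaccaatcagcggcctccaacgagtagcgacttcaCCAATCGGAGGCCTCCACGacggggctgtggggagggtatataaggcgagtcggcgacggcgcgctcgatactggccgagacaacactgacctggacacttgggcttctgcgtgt
Syvn1: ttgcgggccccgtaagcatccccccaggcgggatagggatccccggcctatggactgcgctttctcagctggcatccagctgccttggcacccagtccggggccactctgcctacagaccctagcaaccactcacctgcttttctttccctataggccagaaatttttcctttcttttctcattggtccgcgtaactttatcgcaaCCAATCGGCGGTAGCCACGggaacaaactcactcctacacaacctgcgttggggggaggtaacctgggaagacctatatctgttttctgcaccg
Creld2: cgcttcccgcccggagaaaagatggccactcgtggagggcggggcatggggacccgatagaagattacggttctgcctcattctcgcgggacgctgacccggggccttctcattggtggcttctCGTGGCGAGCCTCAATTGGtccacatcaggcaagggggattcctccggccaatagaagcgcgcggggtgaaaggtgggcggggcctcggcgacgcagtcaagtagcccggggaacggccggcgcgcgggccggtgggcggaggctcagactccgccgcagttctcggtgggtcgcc
Hsp90b1: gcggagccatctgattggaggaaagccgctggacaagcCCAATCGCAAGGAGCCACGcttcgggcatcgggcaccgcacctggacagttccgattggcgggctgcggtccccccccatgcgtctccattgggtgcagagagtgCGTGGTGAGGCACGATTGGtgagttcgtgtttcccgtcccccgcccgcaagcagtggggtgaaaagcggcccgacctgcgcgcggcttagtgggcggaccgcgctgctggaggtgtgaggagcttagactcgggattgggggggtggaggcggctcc

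The element begins 65 bases before the transcription start in Hspa5 and 44 bases before it in Syvn1, on the strand of the gene in both. In Creld2 it lies on the other strand, from 126 bases before the start, so that its letters read as the reverse complement. Hsp90b1 holds 2 elements, 1 on each strand, which begin 212 and 107 bases before the start. Creld2 and Hsp90b1 were chosen for their element and had log2 fold changes of -1.14 and -0.48.

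Hyou1 (chr9:44379490-44392369), which works with BiP as a nucleotide exchange factor, passed adjustment. It ranged from 124 to 694 CPM in control mice (median 295) and from 98.0 to 189.6 CPM with ponatinib (median 143), a log2 fold change of -1.23 ± 0.26 SE or 2.34-fold lower (edgeR, adjusted p = 0.037; exact permutation p = 0.0073). Hspa5 (chr2:34771970-34777547), which encodes BiP itself, the main chaperone of the compartment, ranged from 649 to 2739 CPM in control mice (median 1218) and from 567 to 891 CPM with ponatinib (median 708). Its log2 fold change was -0.98 ± 0.23 SE (edgeR, adjusted p = 0.097), and 4 treated mice lay below every control mouse. In both genes control mice 3 and 4 had the lowest control values, within the range of the treated mice, and control mouse 1 the highest.

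Syvn1, the ubiquitin ligase that tags misfolded proteins, fell from 155 ± 92.4 to 76.7 ± 16.8 CPM, and 7 of 8 treated mice lay below every control mouse (log2 fold change -1.02, adjusted p = 0.11 by edgeR; exact permutation p = 0.00171). Ero1lb, an oxidase that drives disulfide bonds, fell from 61.9 ± 26.6 to 35.5 ± 9.42 CPM, and the disulfide isomerase gene Pdia4 fell from 433 ± 188 to 269 ± 57.6 CPM (adjusted p = 0.13 for both by edgeR). Ern1 fell from 68.6 ± 24.8 to 45.4 ± 6.47 CPM (log2 fold change -0.60, adjusted p = 0.19 by edgeR), with 6 treated mice below every control mouse. Derl3, which helps to export misfolded proteins and is abundant in plasma cells, fell from 40.4 ± 26.5 to 16.0 ± 7.20 CPM (log2 fold change -1.34, adjusted p = 0.22 by edgeR).

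In neighbouring stress pathways edgeR called no gene. Of 24 targets of ATF4, the factor of the amino acid response, 4 had an unadjusted p-value below 0.05, DESeq2 called 0 and limma 2. Atf3, a stress-induced transcription factor, was 14.7 ± 13.1 in control and 6.25 ± 3.81 CPM in treated mice (adjusted p = 0.38 by edgeR). Of 19 heat shock genes 4 had an unadjusted p-value below 0.05, DESeq2 called 1 and limma 2, and the co-chaperone gene Stip1 was 72.2 ± 23.5 in control and 50.4 ± 14.7 CPM in treated mice.

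**Figure D3:**
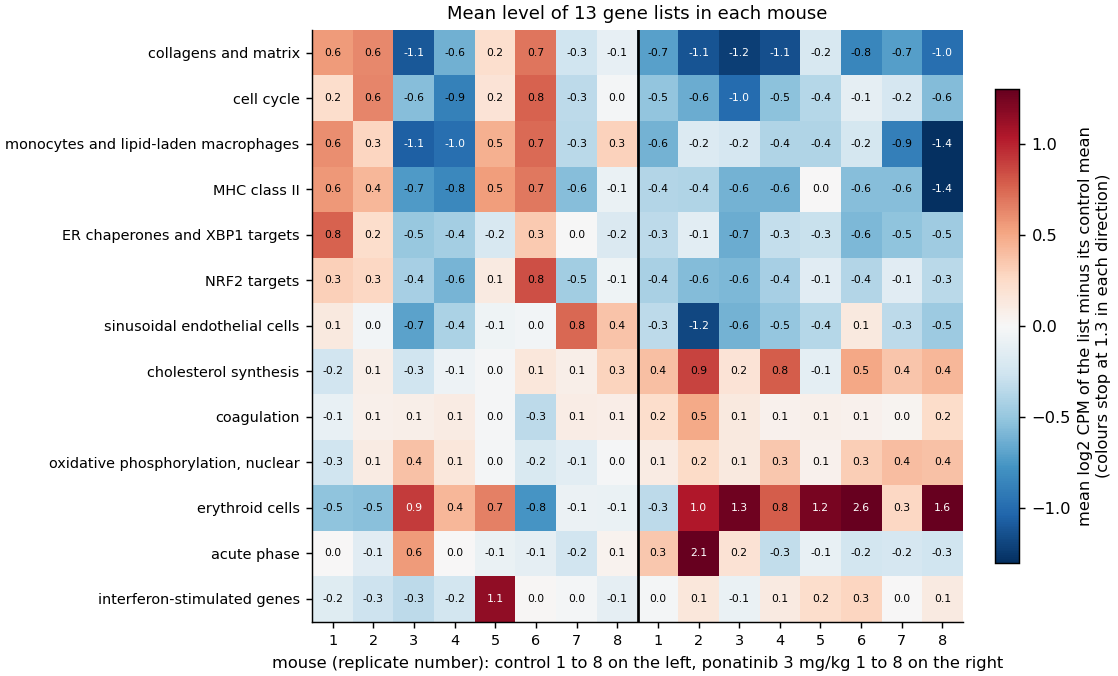
Mean log2 CPM of 13 gene lists in each mouse minus the control mean of the list, with control mice 1 to 8 left of the line and ponatinib mice 1 to 8 right of it. Control mice 1, 2 and 6 are above 0 for matrix, macrophage, MHC class II and ER chaperone genes and control mice 3 and 4 below 0, while ponatinib mouse 2 stands out for acute phase genes (2.1) and control mouse 5 for interferon-stimulated genes (1.15).

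Cdkn1a had the smallest p-value of all genes. It encodes p21, an inhibitor of cyclin-dependent kinases that p53 induces. Cdkn1a (chr17:29090976-29100727) ranged from 2.32 to 41.9 CPM in control mice (median 9.30) and from 0.587 to 4.17 CPM with ponatinib (median 1.80). The log2 fold change was -2.91 ± 0.55 SE, or 7.53-fold lower (edgeR, adjusted p = 0.025; exact permutation p = 0.00155). In 5 of 8 treated mice it lay below every control mouse, and control mice 1 and 2 had the highest values.

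Of 35 cell cycle genes 1 was called lower, Cdkn1a, and 1 higher, against 1.61% and 1.32% of all genes. The latter was Cdk4, a kinase that drives entry into the cycle (from 40.7 ± 6.26 to 52.9 ± 6.78 CPM, adjusted p = 0.34 by edgeR). Of all 35, 28 had a negative log2 fold change and the list median was -0.48. Control mice 2 and 6 lay 0.63 and 0.77 above the control mean of the list on the log2 scale, and the treated mice spanned -1.0 to -0.12.

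Sinusoidal endothelial genes were lower in a few members, among them 2 of the kinases that ponatinib inhibits. Of 27 such kinases tested 2 were called lower, against 1.61% of all genes, both receptors for vascular endothelial growth factors (VEGF). Kdr, the receptor for VEGF-A, ranged from 21.1 to 82.2 CPM in control mice (median 35.4) and from 6.23 to 38.4 CPM with ponatinib (median 22.4), a log2 fold change of -0.83 ± 0.27 SE (edgeR, adjusted p = 0.27; exact permutation p = 0.0208). Flt4, the receptor for VEGF-C, fell from 23.8 ± 13.8 to 14.3 ± 4.38 CPM (log2 fold change -0.74; edgeR, adjusted p = 0.28; exact permutation p = 0.0693), and its call was lost in the fit of the 16 mice alone. The groups overlapped in both genes, and control mouse 7 had the highest value.

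Of 26 markers of sinusoidal endothelial cells 4 were called, all lower, against 1.61% of all genes. Of the 26, 25 had a negative log2 fold change and the list median was -0.48. Besides Kdr and Flt4 these were Ehd3, an endocytosis protein, which fell from 53.5 ± 20.9 to 33.5 ± 10.7 CPM, and the water channel gene Aqp1, which fell from 95.0 ± 48.0 to 57.2 ± 16.7 CPM (adjusted p = 0.26 and 0.28 by edgeR; exact permutation p = 0.0314 and 0.0657). The markers summed to 543 to 1583 CPM in control mice (median 872) and 455 to 974 CPM with ponatinib (median 689). All 4 calls were lost without control mouse 7, whereas limma with sample weights called 15. Whether both kinase genes fell more than other endothelial genes was not tested.

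Of 20 genes of endothelial activation and nitric oxide edgeR called 0, while 1 had an unadjusted p-value below 0.05, DESeq2 called 0 and limma 1. The members with the smallest p-values were Cav1, which encodes the caveola protein caveolin-1 (4.62 ± 2.19 in control and 1.63 ± 0.896 CPM in treated mice), and Thbs1, which encodes thrombospondin-1 (7.44 ± 5.50 in control and 3.58 ± 1.98 CPM in treated mice).

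Cholesterol synthesis genes that were called were higher with ponatinib. Of 21 genes of the pathway 4 were called, all higher, against 1.32% of all genes. Of the 21, 19 had a positive log2 fold change and the list median was 0.50. Fdft1, the squalene synthase, ranged from 41.1 to 77.7 CPM in control mice (median 62.3) and from 69.4 to 124 CPM with ponatinib (median 86.3). In 7 of 8 treated mice it lay above every control mouse (log2 fold change 0.60 ± 0.18 SE; edgeR, adjusted p = 0.22; exact permutation p = 0.00124).

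Pmvk, the phosphomevalonate kinase, rose from 39.9 ± 8.35 to 69.1 ± 16.5 CPM (log2 fold change 0.79 ± 0.26 SE), and Tm7sf2, a sterol reductase, rose from 90.3 ± 22.3 to 146 ± 27.7 CPM (log2 fold change 0.69 ± 0.22 SE), with an adjusted p-value of 0.26 for both by edgeR. The sterol oxidase gene Msmo1 rose from 61.1 ± 9.64 to 102 ± 40.6 CPM (log2 fold change 0.75, adjusted p = 0.32 by edgeR). In Fdft1, Pmvk and Msmo1 the lowest treated value was that of ponatinib mouse 5. The number of called members was 2 without control mouse 1 and 8 without ponatinib mouse 5.

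Of 12 genes of SREBP2 and LDL receptor control 1 was called higher, against 1.32% of all genes. It was the cholesterol carrier gene Stard4, which rose from 104 ± 22.5 to 146 ± 17.4 CPM (log2 fold change 0.49, adjusted p = 0.32 by edgeR). Slc25a1, which exports citrate from mitochondria for sterol and fatty acid synthesis, ranged from 169.8 to 254 CPM in control mice (median 211) and from 263 to 369.7 CPM with ponatinib (median 284). The groups did not overlap, and the log2 fold change was 0.44 ± 0.12 SE (edgeR, adjusted p = 0.13; exact permutation p = 0.000155, the smallest that 8 mice against 8 allow). Ebpl, a relative of sterol isomerase, rose from 87.5 ± 21.4 to 131 ± 22.1 CPM (adjusted p = 0.12 by edgeR).

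Among fatty acid genes, those of oxidation had calls by edgeR and those of lipogenesis none. Of 29 lipogenesis genes edgeR called 0, while 3 had an unadjusted p-value below 0.05, DESeq2 called 0 and limma 2. The desaturase gene Fads1 was 824 ± 198 in control and 1093 ± 119 CPM in treated mice, and Acss2, which makes acetyl-CoA from acetate, 317 ± 102 and 507 ± 139 CPM. Of 28 genes of PPAR alpha and fatty acid oxidation 1 was called lower and 1 higher, against 1.61% and 1.32% of all genes. Pdk4, the kinase that inhibits pyruvate dehydrogenase, fell from 25.8 ± 18.6 to 9.16 ± 4.74 CPM (log2 fold change -1.50, adjusted p = 0.28 by edgeR). The thiolase gene Acaa2 rose from 913 ± 145 to 1111 ± 91.1 CPM (adjusted p = 0.34 by edgeR). Outside these lists Fabp5, a fatty acid binding protein, rose from 40.0 ± 18.7 to 101 ± 59.5 CPM, and 7 of 8 treated mice lay above every control mouse (log2 fold change 1.35 ± 0.36 SE, adjusted p = 0.14 by edgeR).

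Genes of bile acid synthesis and sterol export moved in both directions. Of 24 tested 1 was called higher and 4 lower, against 1.32% and 1.61% of all genes. Abcb4, which moves phospholipid into bile, ranged from 282 to 375 CPM in control mice (median 321) and from 218 to 290.2 CPM with ponatinib (median 249), with 7 treated mice below every control mouse (log2 fold change -0.37 ± 0.12 SE; edgeR, adjusted p = 0.28; exact permutation p = 0.000311). Abcg1 and Abca1, which export cholesterol to HDL, fell from 48.4 ± 15.6 to 29.3 ± 11.5 CPM and from 198 ± 14.6 to 157 ± 22.4 CPM (adjusted p = 0.26 and 0.33 by edgeR). Acox2, an oxidase that shortens the side chain of bile acids, fell from 185 ± 29.7 to 132 ± 40.9 CPM, and Slc10a1, which takes up bile acids from blood, rose from 554 ± 236 to 797 ± 86.9 CPM (adjusted p = 0.29 and 0.32 by edgeR). Without control mouse 1 edgeR called 1 gene of the list.

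Of 20 genes of apolipoproteins and VLDL assembly 3 were called, all higher, against 1.32% of all genes. Of the 20, 17 had a positive log2 fold change and the list median was 0.24. Apoh, a plasma glycoprotein that binds phospholipid, rose from 1844 ± 350 to 2398 ± 169 CPM (log2 fold change 0.38, adjusted p = 0.2 by edgeR). The phospholipid transfer protein gene Pltp rose from 206 ± 33.5 to 291 ± 82.1 CPM and Apoa5, which promotes clearance of triglycerides, from 1176 ± 341 to 1668 ± 295 CPM (adjusted p = 0.3 and 0.34 by edgeR). Of 27 genes of lipases and lipid uptake edgeR called 0, while 2 had an unadjusted p-value below 0.05, DESeq2 called 0 and limma 2. Lpl, the lipoprotein lipase, which the study named, was 139.8 ± 52.5 in control and 104 ± 29.1 CPM in treated mice (adjusted p = 0.65 by edgeR), and the fatty acid receptor gene Cd36 313 ± 34.7 and 252 ± 43.4 CPM.

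Coagulation was examined because arterial thrombosis is a known adverse effect of ponatinib. The study named Kng1, F7, Plau and Plat from other treated groups of this series set against the same control mice, so these are not independent evidence. Of 32 coagulation genes tested 7 were called, all higher, against 1.32% of all genes tested. Of the 32, 24 had a positive log2 fold change and the list median was 0.27. The called members were F7 and F10, both clotting factors, and Kng1, which encodes kininogen, the cofactor of the contact pathway, with its relative Kng2. The others were Serpina1a, Serpina1b and Serpina1d, which are copies of alpha-1-antitrypsin, an inhibitor of neutrophil elastase and no clotting factor.

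Kng1 (chr16:23057865-23082078) ranged from 1435 to 2982 CPM in control mice (median 2006) and from 2254 to 3802 CPM with ponatinib (median 2775). In 3 treated mice it lay above every control mouse, and ponatinib mouse 2 had the highest value (log2 fold change 0.45 ± 0.13 SE; edgeR, adjusted p = 0.21; exact permutation p = 0.00855). F7 (chr8:13026034-13035809), which encodes factor VII of the tissue factor pathway, ranged from 78.8 to 186 CPM in control mice (median 130.3) and from 107 to 252 CPM with ponatinib (median 164). The groups overlapped in all but 2 treated mice, and the log2 fold change was 0.49 ± 0.17 SE (edgeR, adjusted p = 0.29; exact permutation p = 0.0235). The call of F7 was lost without ponatinib mouse 2 or 3 and without control mouse 1 or 6.

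Ponatinib mouse 2, which stood apart in acute phase genes (described below), had the highest list mean for coagulation, 0.49 above the control mean on the log2 scale, against 0.04 to 0.24 in the other treated mice and -0.34 to 0.11 in control mice. Without it edgeR called 5 genes of the list. Kng2 rose from 349 ± 90.3 to 472 ± 60.4 CPM (log2 fold change 0.44, adjusted p = 0.21 by edgeR). Serpina1b rose from 3005 ± 557 to 3994 ± 258 CPM (log2 fold change 0.41, adjusted p = 0.2 by edgeR), with 6 treated mice above every control mouse, and Serpina1a and Serpina1d rose by 0.38 and 0.44 on the log2 scale. F10 is named to complete the count of called genes and rose by 0.34 on the log2 scale. These copies share sequence, and how their reads were divided is uncertain. The number of called coagulation genes was 3 without control mouse 1, 11 without control mouse 3 and 17 by limma with sample weights. Hepatocyte markers, none of which was called by edgeR, had a list median of 0.30 (6 had an unadjusted p-value below 0.05, DESeq2 called 1 and limma 6), and their part in the coagulation difference was not tested.

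In fibrinolysis, the dissolution of clots, 1 of 11 genes was called lower, against 1.61% of all genes. Plau, the urokinase that activates plasminogen, fell from 11.7 ± 6.11 to 4.41 ± 2.57 CPM (log2 fold change -1.40 ± 0.51 SE, adjusted p = 0.32 by edgeR), a call that held in 8 of the 16 fits that left out 1 mouse. Plat, the tissue-type activator, was 3.17 ± 2.31 in control and 1.23 ± 0.872 CPM in treated mice (log2 fold change -1.37 ± 0.82 SE, adjusted p = 0.63 by edgeR). Anxa2, which binds plasminogen and its activator on cells, was 46.6 ± 28.3 in control and 27.4 ± 11.9 CPM in treated mice (adjusted p = 0.37 by edgeR). Klkb1, which encodes plasma kallikrein, was not analysed here.

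**Figure D4:**
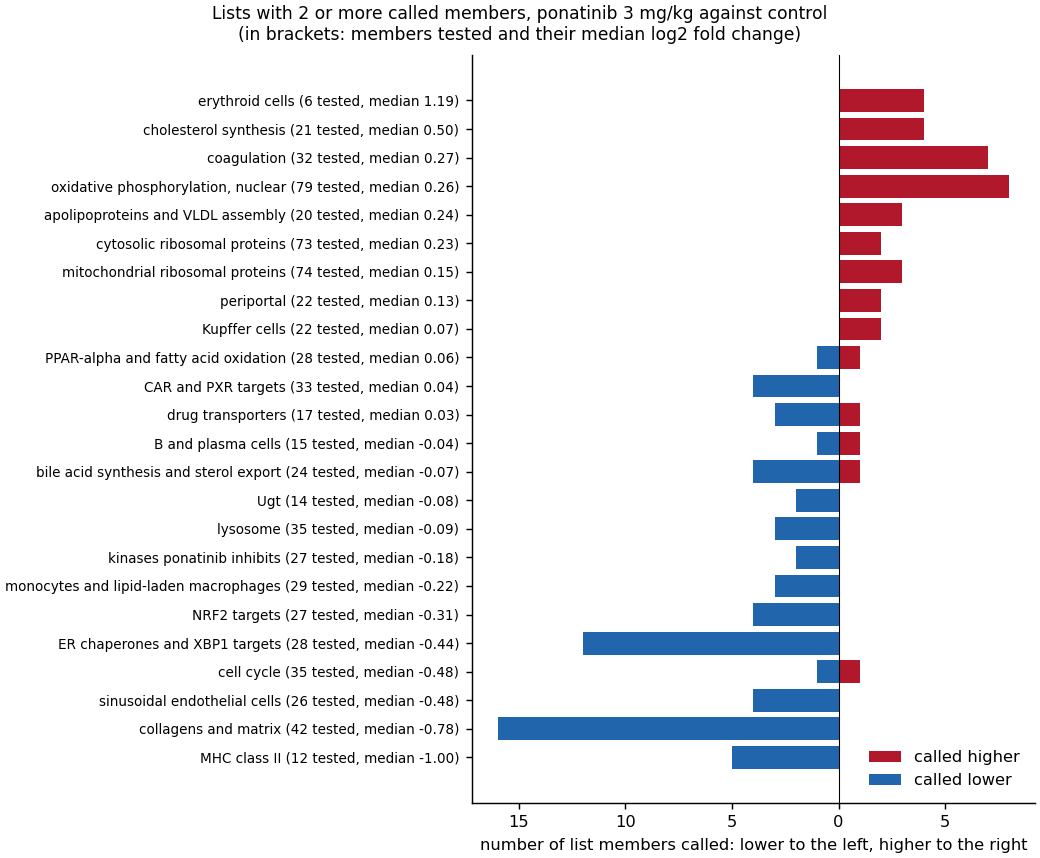
Number of members called higher (red, to the right) and lower (blue, to the left) with ponatinib 3 mg/kg in each gene list with 2 or more called members, ordered by the median log2 fold change of the members tested. Matrix (16) and ER chaperone genes (12) have the most calls, all lower, and nuclear oxidative phosphorylation (8) and coagulation genes (7) the most calls that are higher.

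A minority of the respiratory chain subunits encoded in the nucleus were called, each higher by less than 1 on the log2 scale. Of 79 tested 8 were called, all higher, against 1.32% of all genes. Of the 79, 74 had a positive log2 fold change and the list median was 0.26. Ndufb11 of complex I ranged from 48.3 to 72.1 CPM in control mice (median 64.9) and from 74.7 to 95.7 CPM with ponatinib (median 81.5), without overlap (log2 fold change 0.42 ± 0.12 SE; edgeR, adjusted p = 0.2; exact permutation p = 0.000155). Ndufab1, the acyl carrier protein of complex I, rose from 17.5 ± 1.29 to 24.9 ± 5.33 CPM, Atp5o of ATP synthase from 72.5 ± 13.9 to 96.0 ± 10.4 CPM and Uqcrb of complex III from 40.0 ± 7.64 to 55.9 ± 5.83 CPM. Cox6b1 and Cox7b of complex IV rose by 0.38 and 0.37 on the log2 scale.

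The number of called subunits was 2 without control mouse 1, 25 without control mouse 3, 4 with the share of reads outside genes as a covariate and 43 by limma with sample weights. Of 10 genes of the mitochondrial DNA edgeR called 0, while 0 had an unadjusted p-value below 0.05, DESeq2 called 0 and limma 0. Their median log2 fold change was 0.01, with mt-Nd1, a subunit of complex I, at 5405 ± 747 in control and 5906 ± 438 CPM in treated mice. Of 74 mitochondrial ribosomal proteins 3 were called higher, against 1.32% of all genes, Mrpl15, Mrpl13 and Mrpl42, which rose by 0.47, 0.45 and 0.43 on the log2 scale. Of 73 cytosolic ribosomal proteins 2 were called, Rps20 and Rps18 (log2 fold changes 0.45 and 0.40), a share near the 2.93% of all genes called in either direction and the 1.32% called higher, and neither was called with the covariate. Of 38 proteasome genes 1 was called, also a share near that of all genes, namely Psma7, which rose from 83.6 ± 4.93 to 102 ± 14.7 CPM.

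Of 6 erythroid genes 4 were called, all of them globins and all higher, against 1.32% of all genes. Hbb-bs, a beta globin, ranged from 58.4 to 175 CPM in control mice (median 108) and from 87.4 to 576 CPM with ponatinib (median 199), with 6 treated mice above every control mouse (log2 fold change 1.13 ± 0.32 SE; edgeR, adjusted p = 0.19). Hba-a1, Hba-a2 and Hbb-bt rose by 1.24, 1.12 and 1.31 on the log2 scale. Ponatinib mouse 6 had the highest value of all 4 globins, and without it Hbb-bs, Hbb-bt and Hba-a2 were no longer called. Globin copies are nearly identical, and reads that align to more than 1 copy were not counted.

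Igkc, the constant region of the kappa light chain, ranged from 5.29 to 9.98 CPM in control mice (median 6.91) and from 8.36 to 93.7 CPM with ponatinib (median 13.7). In 6 treated mice it lay above every control mouse (log2 fold change 1.76 ± 0.42 SE; edgeR, adjusted p = 0.11; exact permutation p = 0.0014), and ponatinib mouse 3 had the highest value. Of 15 B and plasma cell genes Igkc was the 1 called higher and Derl3 the 1 called lower, against 1.32% and 1.61% of all genes. Of 16 T and NK cell genes edgeR called 0, while 0 had an unadjusted p-value below 0.05, DESeq2 called 0 and limma 0.

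Called targets of NRF2, CAR and PXR were all lower with ponatinib. Of 27 targets of NRF2, the factor that responds to electrophiles, 4 were called, all lower, against 1.61% of all genes, with a list median of -0.31. Abcc4, an efflux pump, ranged from 9.02 to 108 CPM in control mice (median 36.9) and from 2.91 to 21.9 CPM with ponatinib (median 10.5), a log2 fold change of -1.83 ± 0.44 SE (edgeR, adjusted p = 0.11). The glutathione transferase gene Gstm3 fell from 222 ± 193 to 69.5 ± 19.5 CPM and the sulfiredoxin gene Srxn1 from 115 ± 80.3 to 50.7 ± 8.45 CPM, with control mouse 6 the highest in both (adjusted p = 0.13 and 0.19 by edgeR). Without that mouse Srxn1 was no longer called. Gclc, which catalyses the first step of glutathione synthesis, fell from 346 ± 92.5 to 226 ± 53.6 CPM (adjusted p = 0.34 by edgeR). Nqo1, a target of AhR and NRF2, was 19.4 ± 11.9 in control and 12.6 ± 2.86 CPM in treated mice.

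Of 33 targets of the drug sensors CAR and PXR 4 were called, all lower, against 1.61% of all genes, while the list median was 0.04. Ephx1, the microsomal epoxide hydrolase, fell from 447 ± 118 to 285 ± 58.8 CPM (log2 fold change -0.65 ± 0.16 SE, adjusted p = 0.12 by edgeR), and the efflux pump gene Abcc3 fell from 387 ± 69.7 to 288 ± 60.3 CPM. Gstm3 and Abcc4 are shared with the NRF2 targets. Of 14 Ugt genes, which conjugate drugs and bilirubin with glucuronic acid, 2 were called, both lower, against 1.61% of all genes. Ugt1a9, also the 1 gene called of 9 AhR targets, fell from 60.7 ± 30.0 to 27.9 ± 7.54 CPM (adjusted p = 0.25 by edgeR) and Ugt2b35 from 193 ± 44.2 to 130.3 ± 29.4 CPM (adjusted p = 0.18 by edgeR), with 7 treated mice below every control mouse in the latter. Ugt1a genes share most of their exons, so their reads cannot be fully told apart. Of 17 drug transporters Abcc4, Abcc3 and Abcg2 were called lower and Slc10a1 higher, against 1.61% and 1.32% of all genes. Abcg2, which pumps many kinase inhibitors out of cells, fell from 48.5 ± 9.95 to 31.7 ± 10.7 CPM (log2 fold change -0.61, adjusted p = 0.15 by edgeR).

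Several genes outside these groups were among those with the smallest p-values. Csad, which takes part in taurine synthesis, ranged from 65.9 to 285 CPM in control mice (median 142) and from 37.4 to 97.0 CPM with ponatinib (median 60.0) (log2 fold change -1.31 ± 0.31 SE; edgeR, adjusted p = 0.11; exact permutation p = 0.000932). Mup20, a major urinary protein, was the 1 of 26 growth hormone and IGF genes called, against 2.93% of all genes. It ranged from 1.88 to 124 CPM in control mice (median 15.3) and from 2.65 to 13.7 CPM with ponatinib (median 6.43) (log2 fold change -2.53 ± 0.63 SE, adjusted p = 0.12 by edgeR), and it has close copies. The splicing factor gene Srsf5 rose from 315 ± 72.3 to 434 ± 70.2 CPM and the sulfotransferase gene Sult1a1 from 284 ± 55.6 to 395 ± 32.1 CPM (adjusted p = 0.13 for both by edgeR). The tubulin cofactor gene Tbca rose from 25.6 ± 3.28 to 36.5 ± 6.50 CPM and Rp9 from 22.8 ± 4.39 to 34.8 ± 6.16 CPM, both without overlap between the groups. Bcas2, Chchd7 and Tmem245 rose by 0.52, 0.79 and 0.45 on the log2 scale.

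Many calls rested on single mice. Of the 97 called genes among the 144 selected by a fixed rule, 50 were called in all 16 fits that left out 1 mouse. Without control mouse 1 calls were lost in 34 genes, Tm7sf2, Msmo1, Stard4, Pdk4, Acaa2, Abcg1, Acox2, Slc10a1, Abca1, Apoa5, Abcc3, Gclc, Serpina1d, Serpina1a, F7, Plau, Clec4f, Marco, Clec7a, Derl3, Nfkb2, Asl, Ftcd, Cdk4, Psap, Atp6v0d2, Hamp2, Atp5o, Uqcrb, Cox6b1, Cox7b, Rps20, Rps18 and Mrpl13. Without control mouse 6 calls were lost in 26 genes, those not in the former list being Srxn1 and Nes. Leaving out any other single mouse cost 5 to 20 calls. A call that was lost kept its direction in these genes.

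Smaller counts, to be read beside the 2.93% of all genes that were called, were found elsewhere. Of 35 lysosomal genes 3 were called lower, namely Gpnmb, the saposin precursor gene Psap (from 978 ± 228 to 729 ± 90.0 CPM) and the proton pump subunit gene Atp6v0d2 (from 22.6 ± 9.80 to 11.3 ± 5.00 CPM). Of 22 periportal genes 2 were called, Asl of the urea cycle, which rose from 406 ± 134 to 563 ± 67.2 CPM, and Ftcd of histidine breakdown, which rose from 405 ± 82.2 to 515 ± 47.8 CPM. Of 22 iron genes the hepcidin copy Hamp2 rose from 155 ± 87.6 to 311 ± 108 CPM, a call that held in 5 of the 16 fits that left out 1 mouse. Of 22 NF-kappa-B genes the subunit gene Nfkb2 fell from 22.5 ± 6.24 to 13.9 ± 5.27 CPM.

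In 20 of the 52 lists no member was called. They held 352 genes tested, of which edgeR called 0 at an unadjusted p-value below 0.01 and 45 at one below 0.05, while DESeq2 called 6 and limma with sample weights 32. Among acute phase genes 1 treated mouse stood apart. The list mean of ponatinib mouse 2 lay 2.1 above the control mean on the log2 scale, against -0.32 to 0.35 in the other treated mice, and Fgb of fibrinogen reached 13290 CPM in it and 4453 to 5953 CPM in the others. Among interferon-stimulated genes control mouse 5 stood apart with a list mean of 1.15 and an Iigp1 level of 2807 CPM, against 244 to 449 CPM in the other control mice. The clock genes Arntl (10.4 ± 12.6 in control and 2.14 ± 3.38 CPM in treated mice) and Nfil3 (29.9 ± 21.7 in control and 15.7 ± 6.82 CPM in treated mice) varied widely among control mice, and the part of the time of day in these results was not tested. Complement, glucose metabolism, pericentral, zinc, renin-angiotensin cholangiocyte, pancreas acinar and adipocyte genes had no calls either.

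Whether the higher dose differed from the lower was tested directly in the same fit. Between ponatinib 10 and 3 mg/kg, with 8 mice each, 151 of 14090 genes (1.07%) had an adjusted p-value below 0.05. The libraries differed too, with 8.89% to 15.2% of uniquely aligned reads outside genes at 10 mg/kg and 7.78% to 9.75% at 3 mg/kg. The part of this share in the differences between the doses was not tested. Of the 144 genes selected by a fixed rule, 1 was among them. Ugt1a9 was 27.9 ± 7.54 CPM at 3 mg/kg and 10.7 ± 5.97 CPM at 10 mg/kg (log2 difference -1.39 ± 0.37 SE; edgeR, adjusted p = 0.045). Of the 42 matrix genes and the 28 ER chaperone genes 0 had an adjusted p-value below 0.05 between the doses by edgeR, and 4 and 1 had an unadjusted p-value below 0.05. Col1a1 was 20.4 ± 23.3 CPM at 3 mg/kg and 14.7 ± 8.00 CPM at 10 mg/kg (log2 difference -0.47 ± 0.47 SE), and Hspa5 was 715 ± 128 and 731 ± 211 CPM (log2 difference 0.03 ± 0.23 SE).

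Cdkn1a was 2.11 ± 1.41 CPM at 3 mg/kg and 6.50 ± 4.25 CPM at 10 mg/kg, a log2 difference of 1.62 ± 0.55 SE that did not pass adjustment (edgeR, adjusted p = 0.13). It was chosen for its low level in these mice at 3 mg/kg, so its lower mean there is not independent evidence. The log2 differences of Psap and Abcg1 were -0.45 ± 0.15 and -0.60 ± 0.24 SE (adjusted p = 0.11 and 0.22 by edgeR). Of the 79 nuclear subunits of oxidative phosphorylation 9 differed between the doses after adjustment, 8 of them higher at 10 mg/kg, and of the 73 cytosolic ribosomal proteins 9, all higher at 10 mg/kg. Of the 20 apolipoprotein and VLDL genes 3 differed, all higher at 10 mg/kg. Lower at 10 mg/kg were 3 of 22 periportal, 2 of 35 lysosomal and 2 of 14 Ugt genes, with no member of these lists higher after adjustment. These list counts are to be read beside the 1.07% of all genes that differed between the doses in either direction. The part of the share of reads outside genes in them was not tested.

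**Figure D5:**
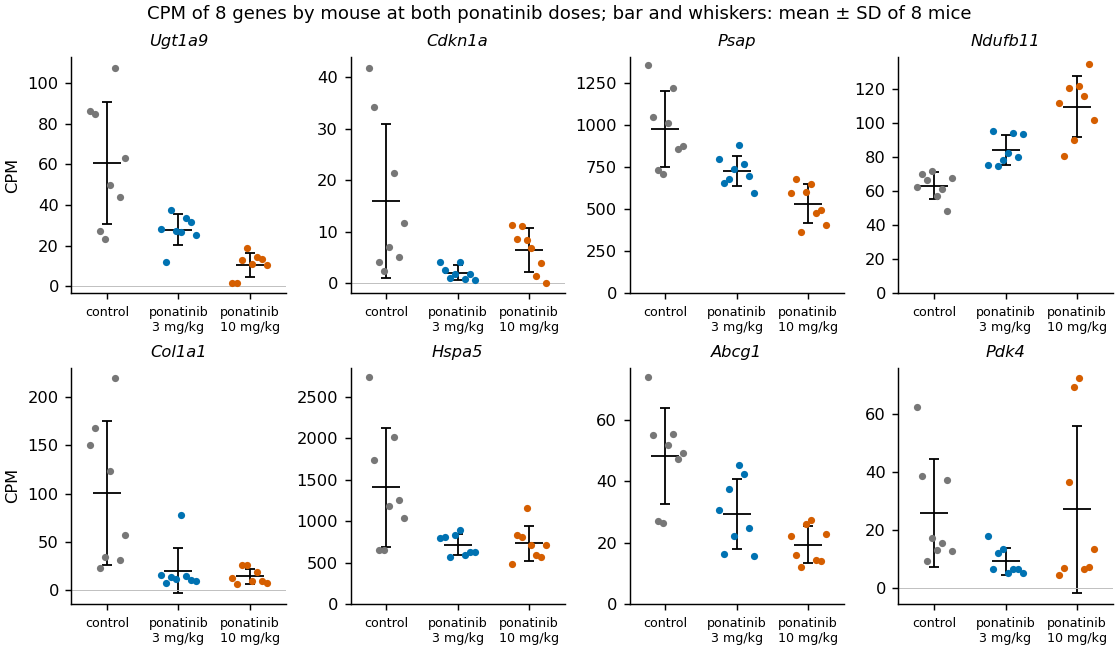
CPM of 8 genes in each control mouse (grey) and each mouse given ponatinib 3 mg/kg (blue) or 10 mg/kg (orange), with mean and SD of 8 mice as bar and whiskers. Mean Hspa5 is 715 CPM at 3 and 731 CPM at 10 mg/kg, Ugt1a9 is lower at 10 than at 3 mg/kg, and Cdkn1a has its lowest mean at 3 mg/kg.

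The dose of 3 mg/kg was also compared directly with nilotinib, another inhibitor of BCR-ABL1, at 10 mg/kg. Drug and dose both differ here and cannot be told apart. With nilotinib 9.14% to 11.0% of uniquely aligned reads lay outside genes, against 7.78% to 9.75% with ponatinib, and the part of this share was not tested. Of 14090 genes 175 (1.24%) had an adjusted p-value below 0.05. Gpnmb was 9.00 ± 14.6 CPM with ponatinib and 112 ± 116 CPM with nilotinib (log2 difference -3.64; edgeR, adjusted p = 0.0082), and Cdkn1a was 2.11 ± 1.41 and 11.3 ± 8.24 CPM (log2 difference -2.40; edgeR, adjusted p = 0.022). Both genes, and the other single genes named in the comparison with nilotinib, were chosen from the same ponatinib mice set against control. Their p-values and directions in it are therefore not independent evidence. Of the MHC class II genes H2-Ab1, H2-Eb1, H2-Aa and Cd74 were lower with ponatinib, by log2 differences of -1.17 to -1.52. Of the 42 matrix genes 4 passed, 2 of them higher with ponatinib, while Col5a2 and Mmp12 were lower. Col5a2 and Hspa5 passed (log2 differences -1.57 and -0.92), whereas Col1a1 and Col1a2 did not (adjusted p = 0.054 and 0.053 by edgeR).

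In cholesterol synthesis 9 of 21 genes passed, against 1.24% of all genes in either direction. All 9 were higher with ponatinib, among them Fdft1, Pmvk and Msmo1 (log2 differences 0.66, 1.07 and 1.15). Kdr, Flt4 and Aqp1 were lower with ponatinib, by log2 differences of -1.05, -0.96 and -1.04. F7 was 176 ± 44.4 CPM with ponatinib and 124 ± 32.9 CPM with nilotinib (log2 difference 0.50; edgeR, adjusted p = 0.12) and did not pass.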

How the data were processed

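Poly(A) RNA from 56 livers was sequenced. Per the labels and the study's methods, the authors aligned reads to GRCm38 with TopHat2 2.0.14, Bowtie2 2.1.0 and SAMtools 0.1.18 and deposited HTSeq 0.6.1p1 counts per gene and mouse, in which reads with several alignments enter no gene. Lines that name no gene stayed out of library sizes. Depths are given as ranges in the report, and low counts carry wide counting error.

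Counts were normalized by TMM and filtered with filterByExpr. One edgeR 4.0.16 quasi-likelihood fit (R 4.3.3) held 48 mice of 6 groups, without the L-NAME group. A gene was called at an unadjusted p-value below 0.01, and Benjamini-Hochberg values cover all 14090 genes. Single genes were also tested with a two-sided exact permutation test of log2 CPM (prior count 2) over 12870 regroupings of 8 and 8 mice. DESeq2 1.42.0 and limma 3.58.1 with sample weights were alternatives. The scripts were tested on simulated data.

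The 52 gene lists and the genes described were chosen with earlier results of these data known. Genes described were those with an adjusted p-value below 0.05, the 15 higher and 15 lower protein-coding genes with the smallest p-values and at least 5 CPM, up to 6 called members of each list (or the 2 with the smallest p-values) and genes the study named. Genes outside this rule are named as such. The values of 1 gene that the rule selects are not reported here.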

Additional observations from a re-analysis of the deposited data

Results flagged for a closer look

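In groups of 8 mice, 19 of 286 tests of the highest or lowest mouse against the others, for genes described here, passed Dixon's criterion at the 95% level, where chance passes about 1 in 20 groups. Among control mice these were Rp9 at 14.15 CPM in mouse 7, Nqo1 at 47.66 CPM in mouse 6, Cav1 at 0.0 CPM and Cox6b1 at 127.4 CPM in mouse 3, Iigp1 at 2807 CPM and Cela1 at 1.923 CPM in mouse 5, and Cyp2c37 at 127.0 CPM in mouse 6. Several treated values came from 2 mice. Ponatinib mouse 5 stood apart in Col1a1 (77.62 CPM), Col3a1 (172.5 CPM), Lum (18.83 CPM) and Pmvk (36.59 CPM), and ponatinib mouse 2 in Abcc3 (169.9 CPM), Ugt1a9 (12.18 CPM), Kdr (6.229 CPM), Aqp1 (22.77 CPM) and Fgb (13290 CPM). The remaining treated values were Slc25a1 at 369.7 CPM in mouse 4, and Igkc at 93.67 CPM and Slc30a7 at 8.921 CPM in mouse 3.

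Ugt1a9 differed between the doses, with a log2 difference of -1.39 between ponatinib 10 and 3 mg/kg that passed adjustment in the edgeR fit.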

How the results depend on the processing

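Of the 413 called genes and 6 genes past adjustment, the fit of the 16 mice alone gave 656 and 0 (edgeR; smallest adjusted p-value 0.0689), no filter on low counts 1096 and 18, and limma with sample weights 1279 and 555. DESeq2 put 42 genes past adjustment, with 1 of the 6 genes among them, and limma kept 4 of the 6 past adjustment. At an unadjusted p-value below 0.001 edgeR called 69 genes, and 11 had an adjusted p-value below 0.1. Leaving out 1 mouse gave 228 called genes (without control mouse 1) to 618 (without control mouse 3), and 0 (without control mouse 1, among others) to 35 (without control mouse 3) past adjustment. The cause was not tested, although fewer mice or genes enter some fits. The other settings, namely all 56 mice, DESeq2 size factors, a mean of at least 5 CPM and the covariate, kept both counts within 1.5 times. Single genes were lost or gained under some settings, and 1 of the 413 called genes changed sign by DESeq2 and 1 without control mouse 5, while no called gene described here did. Replicate numbers follow the order of deposit. No paired analysis was possible because no label pairs the mice.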
